A study of Mus musculus with 10 samples.

Results

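The 30 genes described here encode acute phase proteins, the plasma and cell proteins whose amounts shift when tissue is injured or inflamed, together with a few proteins that sense or restrain the same response. They were chosen by name: the serum amyloids Saa1, Saa2, Saa3 and Saa4, the orosomucoids Orm1, Orm2 and Orm3, the pentraxins Crp and Apcs, the fibrinogen chains Fga, Fgb and Fgg, the haem and metal binders Hp, Hpx, Cp, Mt1, Mt2, Lcn2 and Steap4, the protease inhibitors Serpina3k, Serpina3m, Serpina3n, A2m, Itih3 and Itih4, the lipopolysaccharide sensors Lbp and Cd14, the complement genes C3 and Cfb, and the interleukin-1 receptor antagonist Il1rn. All 30 were found by Ensembl identifier among the 55487 gene identifiers of each of 2 liver count tables. Both tables came from 8-week-old C57BL/6J mice, labelled male, whose liver was left to regrow after partial hepatectomy (PHx), the surgical removal of a large part of the organ. In the diet experiment, 3 livers were from mice on a high-fat diet (HFD) during the 7 days that preceded PHx and 3 from mice kept on chow, all taken 40 hours after surgery. In the inhibitor experiment, 4 libraries were from mice given SSO at 40 mg/kg 1 day before PHx and 4 from mice given the solvent as vehicle, all taken 48 hours after surgery. The labels do not spell out SSO, an abbreviation that commonly stands for sulfosuccinimidyl oleate, a blocker of fatty acid uptake through CD36. The labels give 8 mice per group for the inhibitor experiment and do not say how the 4 libraries relate to them, so its p-values measure how libraries, not necessarily animals, vary. Every animal had surgery and no unoperated liver was analysed here, so the comparisons are between diets or injections within the response to PHx.

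Hepatocytes make most acute phase proteins and secrete them into plasma. Interleukin-6 acts on the liver through its receptor chains and the transcription factor STAT3, while interleukin-1 and tumour necrosis factor act through NF-kB, and C/EBP factors bind many of the same promoters. Interleukin-6 made by liver macrophages is also a known signal early after partial hepatectomy. In mice the circulating serum amyloid A proteins and serum amyloid P, the product of Apcs, are strong responders, whereas C-reactive protein, the classical human marker, responds weakly.

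The start regions of 4 of the genes described below are shown first. Saa1 and Saa2 lie next to each other on chromosome 7 and encode nearly the same protein, so their start regions are set side by side. The RefSeq sequences run from 250 bases before to 50 bases after the start site on GRCm38.p6, written 5′ to 3′ on the strand of the gene. They are chr7:46742931-46743230 on the minus strand for Saa1 and chr7:46751583-46751882 on the plus strand for Saa2, and capitals mark the 12 bases that differ between the pair, while a base opposite a gap is left in lower case.
Saa1: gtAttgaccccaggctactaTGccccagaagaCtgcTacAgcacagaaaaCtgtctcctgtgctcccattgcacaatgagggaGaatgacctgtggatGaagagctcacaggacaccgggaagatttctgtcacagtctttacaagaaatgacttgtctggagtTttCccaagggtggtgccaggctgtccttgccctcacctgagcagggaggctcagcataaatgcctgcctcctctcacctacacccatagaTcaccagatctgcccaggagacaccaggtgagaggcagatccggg
Saa2: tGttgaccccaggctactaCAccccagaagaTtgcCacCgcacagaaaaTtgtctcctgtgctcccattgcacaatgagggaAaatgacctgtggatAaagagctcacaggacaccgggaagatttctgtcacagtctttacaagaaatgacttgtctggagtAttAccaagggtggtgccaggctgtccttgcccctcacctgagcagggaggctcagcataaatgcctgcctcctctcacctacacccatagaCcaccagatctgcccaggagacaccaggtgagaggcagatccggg
In the alignment 287 bases were the same, 12 differed and 2 columns were gaps, an identity of 96%, against 89.5% for the neighbouring pair Orm2 and Orm3. Saa3 and Steap4 are shown because both hold a match to an NF-kB pattern and Steap4 also one to a STAT pattern, here in capitals. Their log2 fold changes had opposite signs in both experiments, but neither gene was called in the main edgeR fits. In the diet experiment the sign of each turned when 1 library was left out. They lie at chr7:46715627-46715926 on the minus strand and chr5:7960222-7960521 on the plus strand.
Saa3: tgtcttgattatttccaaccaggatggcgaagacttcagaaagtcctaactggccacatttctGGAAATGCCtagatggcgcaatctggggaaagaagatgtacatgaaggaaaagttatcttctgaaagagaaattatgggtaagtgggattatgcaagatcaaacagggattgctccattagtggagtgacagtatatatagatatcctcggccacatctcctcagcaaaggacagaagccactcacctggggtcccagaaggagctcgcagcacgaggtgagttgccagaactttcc
Steap4: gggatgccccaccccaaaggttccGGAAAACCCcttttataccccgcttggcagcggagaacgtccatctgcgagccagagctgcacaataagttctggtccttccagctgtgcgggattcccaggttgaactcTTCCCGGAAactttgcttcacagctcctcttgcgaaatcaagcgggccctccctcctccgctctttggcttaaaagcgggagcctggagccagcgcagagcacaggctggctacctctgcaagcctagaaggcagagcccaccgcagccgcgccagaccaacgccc
RefSeq start regions were matched for 22 of the 30 genes, 25 regions in all, and were searched on both strands for 4 patterns. The STAT pattern TTCNNNGAA was in 20% of these regions (Apcs, Fga, Fgb, Itih4 and Steap4), against 8.30% of all 32851 regions of the same length. The NF-kB pattern GGNNTTTCC was in 24% (Cp, Il1rn, Saa3, Serpina3n and Steap4), against 5.82% of all. Il1rn has 3 regions, and 2 of them overlap and hold the same matches, so its 1 NF-kB match is counted in both. The looser C/EBP pattern TTNNGNAA was in 76%, against 40.7% of all, and the metal response pattern TGCNCNC in 40%, against 51% of all. Mt2 held 6 matches to the metal response pattern and Mt1 held 3. Patterns can share bases, as the NF-kB matches of Saa3 and Steap4 do with a C/EBP match. A match is a run of letters and was not tested as a binding site. Orm1, Hp, Serpina3k, Serpina3m, A2m, Lbp, Cd14 and Cfb are named here without a sequence.

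HFD libraries held 31.9 to 33.9 M counts and chow libraries 36.7 to 39.9 M, while SSO libraries held 28.0 to 30.4 M and vehicle libraries 25.2 to 29.8 M. Albumin was at 30839 to 55072 CPM (counts-per-million) in HFD and chow livers and 47102 to 82776 CPM in SSO and vehicle livers, and is the leading product of hepatocytes. Mitochondrially encoded transcripts took 15.2% to 17.6% of the counts in SSO libraries and 4.99% to 22.5% in vehicle libraries, where vehicle 2 was the highest, and 6.56% to 9.96% in the diet experiment. Against the male label, the female transcript Xist was at 698 to 1772 CPM and the Y-linked Ddx3y had no counts in all 8 libraries of the inhibitor experiment. The 6 diet libraries carried Ddx3y at 55.0 to 76.3 CPM. No pair of libraries within a group agreed within sampling noise, and each was counted as a replicate. Where no read was counted, up to 3 counts are still possible, equal to 0.0770 to 0.136 CPM by library, for counting error only.

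Acute phase transcripts took up a sizeable part of every liver library. The 30 genes together held 8.29%, 8.83% and 8.61% of all counts in HFD livers 1 to 3, against 5.73%, 9.11% and 15.9% in chow livers 1 to 3. In the inhibitor experiment they held 3.03%, 2.97%, 3.13% and 3.09% in SSO livers 1 to 4, against 5.25%, 2.55%, 4.14% and 3.81% in vehicle livers 1 to 4. HFD and SSO livers were alike within each group, while chow 3 and vehicle 1 were the highest of their experiments and chow 1 and vehicle 2 the lowest. The 2 tables were scaled separately and sampled at different hours, and no test between them was made. Per length, as TPM (counts divided by annotated exon length and rescaled to the same total in each library), haemopexin (Hpx), which binds free haem, led the diet experiment with a mean of 23891 TPM in HFD livers and 19598 TPM in chow livers. It was followed by haptoglobin (Hp), which binds free haemoglobin, with 16141 and 19517 TPM in HFD and chow livers, by Serpina3k with 13258 and 15252 TPM, and by Orm1 with 7850.3 and 11060.2 TPM. The lowest were Cd14, A2m, Il1rn and Cfb, all under 5 TPM in both diet groups. In the inhibitor experiment the same 4 genes led, with Hp at 6889 TPM in SSO livers and 8241 TPM in vehicle livers. Saa1 was at 176 TPM in SSO livers and 69.0 TPM in vehicle livers, and A2m was under the low-count filter there, at 0.0743 to 0.214 CPM in SSO livers and 0 to 0.381 CPM in vehicle livers. The levels of Cfb and Mt2 are uncertain, because 79.5% of the exon length of Cfb is shared with the readthrough gene Gm20547 and 73.5% of that of Mt2 with Gm45774 on the other strand. Reads of Saa1 and Saa2, of Orm1 and Orm2, and of Serpina3k and Serpina3m can also be shared: 14.8% of the 50-base windows of the Saa1 transcript, 20.4% of those of Orm1 and 19.1% of those of Serpina3m occur in another gene, the named relative among them.

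**Figure D1:**
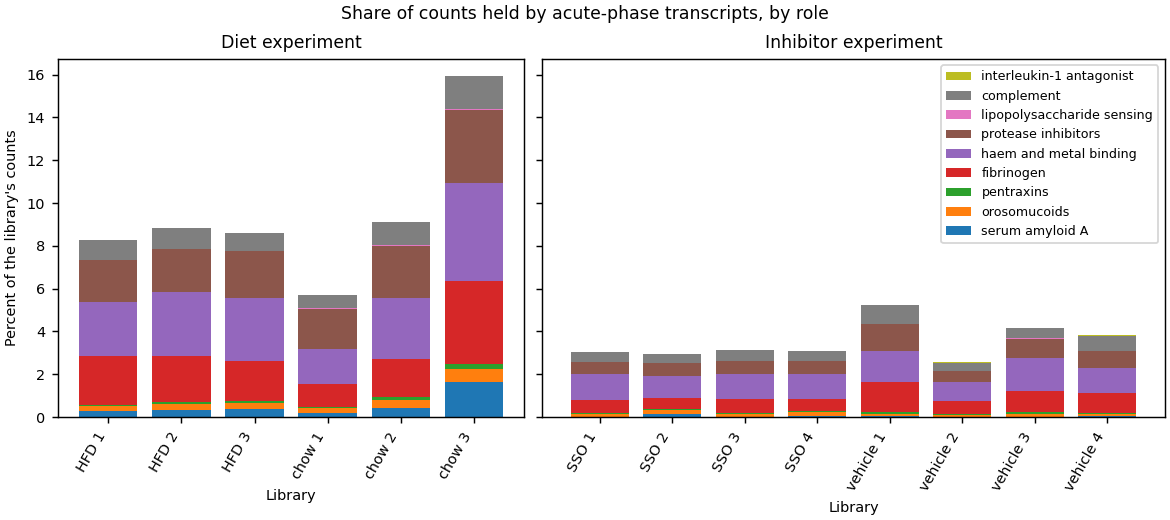
Stacked bars give the percent of each library's counts (vertical axis) held by the 30 acute phase transcripts, coloured by role, with HFD left of chow and SSO left of vehicle. HFD libraries stand between 8.29% and 8.83% while chow libraries run between 5.73% and 15.9%, and SSO libraries stand between 2.97% and 3.13% while vehicle libraries run between 2.55% and 5.25%.

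The first comparison asks what 7 days of high-fat feeding did to these transcripts 40 hours after PHx. None of the 30 passed the edgeR quasi-likelihood test at a Benjamini-Hochberg adjusted p under 0.05, where 2.32% of the 15589 genes tested did. DESeq2, which called 5.94% of all genes, and limma-voom, which called 2.32%, also called 0 of the 30. At an unadjusted p under 0.05 there were 2, Crp and Orm3, which is 6.67% of the members against 15% of all genes tested. Of the 30 log2 fold changes, HFD over chow, 26 were negative and 4 positive, with a median of -0.49, against -0.02 for all genes, and a range of -2.63 (A2m) to 1.06 (Il1rn). By CPM, HFD and chow values overlapped for 26 genes, and by TPM they overlapped for Crp as well. Cfb lay higher in all 3 HFD livers than in any chow liver, where 11.2% of all genes did, and Crp, Orm3 and Serpina3k lay lower, where 10.8% of all genes did.

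Chow livers differed widely from each other in these genes. Chow 3 had the highest level of the 6 libraries for 26 of the 30 genes, against 22.6% of all genes tested, and chow 1 had the lowest for 24, against 19% of all genes. The median SD of log2 levels within HFD livers was 0.21 for the 30 genes and 0.19 for all genes. Within chow livers it was 1.01 for the 30 genes and 0.29 for all genes. The highest chow liver was 31.2 times the lowest for Saa3, 15.2 times for Mt1, 14.1 times for Saa2, 11.5 times for Serpina3n and 10.3 times for Lcn2, whereas Serpina3k differed 1.04 times among the same livers.

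**Figure D2:**
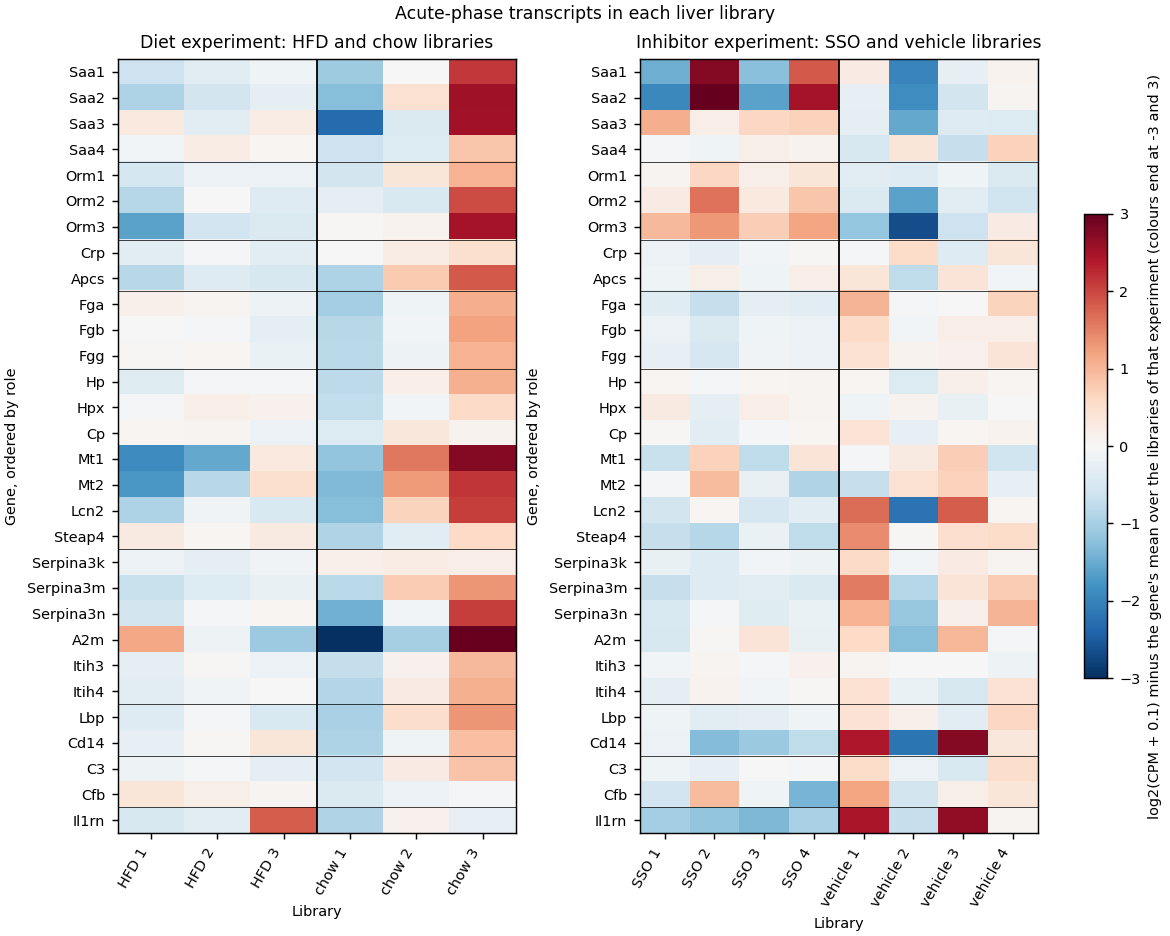
Each cell shows the log2(CPM + 0.1) of one acute phase gene (rows, grouped by role) in one library (columns) minus the mean of that gene over the libraries of its experiment, with HFD left of chow and SSO left of vehicle. Chow 3 is the highest diet library for 26 of 30 genes and chow 1 the lowest for 24, and Saa1 and Saa2 are high in SSO 2 and SSO 4.

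The serum amyloid A genes encode lipid-binding proteins that travel on high-density lipoprotein. Saa1 was at 1338, 1636 and 1859 CPM in HFD livers 1 to 3, against 977, 2067 and 8854 CPM in chow livers 1 to 3. Saa2 was at 789, 1019 and 1236 CPM in HFD livers, against 618, 2033 and 8726 CPM in chow livers. For both genes the HFD livers lay together, above chow 1 and below chow 2 and chow 3. The log2 fold change was -1.30 ± 0.78 (SE) for Saa1 and -1.90 ± 0.92 for Saa2, with edgeR adjusted p of 0.512 and 0.417. The ratio of Saa2 to Saa1 was 0.589, 0.623 and 0.665 in HFD livers and 0.633, 0.983 and 0.986 in chow livers, so that chow 2 and chow 3 had nearly equal amounts of both. Saa3, which in mice is made outside hepatocytes as well, was at 6.75, 4.35 and 6.41 CPM in HFD livers, against 1.03, 4.03 and 32.1 CPM in chow livers. Its log2 fold change of -1.08 ± 1.16 (adjusted p 0.734) turned positive, 1.21, without chow 3 and in the limma-voom fit. Saa4, a constitutive relative that changes little in inflammation, averaged 449.9 ± 48.8 CPM in HFD livers and 454 ± 266 CPM in chow livers (SD, n = 3 each), and its sign depended on the scaling.

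The orosomucoids are heavily glycosylated carrier proteins of plasma. Orm1 was at 2016, 2592 and 2594 CPM in HFD livers, against 2002, 3719 and 6037 CPM in chow livers. Orm2 was at 134, 243 and 186 CPM in HFD livers, against 200.4, 176 and 947 CPM in chow livers. Orm3 is the least abundant of the family and was at 5.32, 10.8 and 12.1 CPM in HFD livers, against 16.7, 17.4 and 91.7 CPM in chow livers. The 3 HFD livers lay below the 3 chow livers for Orm3 and overlapped them for Orm1 and Orm2. The log2 fold changes were -0.71 ± 0.36 for Orm1, -1.23 ± 0.71 for Orm2 and -2.16 ± 0.81 for Orm3, with adjusted p of 0.417, 0.496 and 0.300. Without chow 3 the value for Orm3 was -0.86.

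The pentraxins are ring-shaped pattern recognition proteins of plasma. Crp was at 303, 375 and 305 CPM in HFD livers, against 382, 448 and 532 CPM in chow livers, a log2 fold change of -0.47 ± 0.18 (adjusted p 0.254). Apcs, the serum amyloid P gene, was at 283, 386 and 358 CPM in HFD livers, against 265, 867 and 1792 CPM in chow livers. The HFD livers lay just above chow 1 and far below chow 2 and chow 3, with a log2 fold change of -1.51 ± 0.63 (adjusted p 0.334). Fibrinogen is the clotting protein built of 3 chains. Its alpha chain Fga was at 8180.2, 7815 and 6661 CPM in HFD livers, against 3658, 6762 and 15775 CPM in chow livers. Fgb was at 5835 to 7038 CPM in HFD livers and 3905 to 16147 CPM in chow livers, and Fgg at 5144 to 6130.1 CPM in HFD livers and 3371 to 12047 CPM in chow livers. All 3 chains ranked chow 1 lowest and chow 3 highest, and their log2 fold changes of -0.43 to -0.21 became 0.33 to 0.53 without chow 3.

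**Figure D3:**
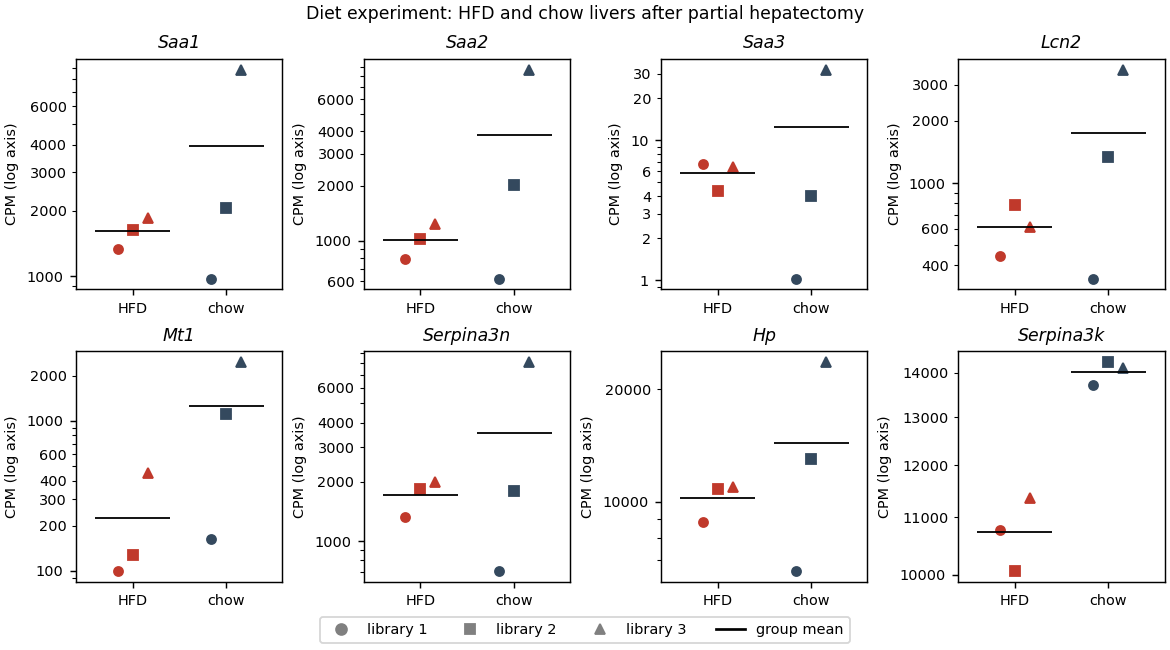
Points give the CPM of 8 acute phase genes in each HFD and chow liver on a log axis, with marker shapes for libraries 1 to 3 and a bar at the group mean (n = 3 each). For Saa1, Saa2, Saa3, Lcn2, Serpina3n and Hp all HFD livers lie between the lowest and the highest chow liver, 2 of 3 HFD livers lie below every chow liver for Mt1, and Serpina3k is at 10058 to 11356 CPM in HFD livers and 13713 to 14249.7 CPM in chow livers.

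Among haem and metal binders, Hpx was at 12645, 15279 and 14442 CPM in HFD livers, against 7945, 12512 and 19722 CPM in chow livers, and Hp at 8845, 10850.4 and 10977 CPM in HFD livers, against 6523, 12986 and 23681 CPM in chow livers. Their log2 fold changes were 0.08 ± 0.31 and -0.49 ± 0.41. The copper protein ceruloplasmin (Cp) averaged 1333 ± 127 CPM in HFD livers and 1382 ± 350.3 CPM in chow livers, and its sign turned with library-size scaling. The metallothioneins bind zinc and copper and respond to metals and glucocorticoids. Mt1 was at 99.4, 128 and 449 CPM in HFD livers, against 163, 1106 and 2479 CPM in chow livers, a log2 fold change of -2.47 ± 1.10 (adjusted p 0.384). Mt2 was at 1.68, 3.26 and 8.33 CPM in HFD livers, against 2.31, 14.4 and 26.3 CPM in chow livers. In both metallothioneins HFD 3 was the highest HFD liver and chow 2 and chow 3 lay above every HFD liver. Lcn2, which sequesters bacterial iron carriers, was at 446, 787 and 613 CPM in HFD livers, against 345, 1337 and 3549 CPM in chow livers, a log2 fold change of -1.50 ± 0.79 (adjusted p 0.453). Steap4, a metalloreductase induced by inflammatory cytokines, was at 347, 304 and 348 CPM in HFD livers, against 156, 234 and 442 CPM in chow livers. It was one of the 4 genes with a positive log2 fold change, 0.26 ± 0.34, and reached 0.77 without chow 3 (adjusted p 0.0941).

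Serpina3k, a liver serine protease inhibitor of the antichymotrypsin family, was at 10776, 10058 and 11356 CPM in HFD livers, against 13713, 14249.7 and 14102 CPM in chow livers. Its groups were tight, with the highest liver 1.13 times the lowest among HFD livers and 1.04 times among chow livers, and its log2 fold change was -0.39 ± 0.19 (adjusted p 0.383). Its inducible relative Serpina3n was at 1317, 1837 and 1989.9 CPM in HFD livers, against 704, 1801 and 8125 CPM in chow livers. Serpina3m averaged 383 ± 58.2 CPM in HFD livers and 813 ± 499 CPM in chow livers. Alpha-2-macroglobulin (A2m), a strong acute phase protein in rats, was low in most livers, at 3.14, 1.21 and 0.591 CPM in HFD livers, against 0.0513, 0.628 and 30.2 CPM in chow livers. Its log2 fold change of -2.63 ± 1.91 rested on chow 3 and was 2.27 without it. The inter-alpha-trypsin inhibitor heavy chains averaged 2911 ± 309 CPM in HFD livers and 3899 ± 2188 CPM in chow livers for Itih3 and 3787 ± 420.2 CPM in HFD livers and 5325 ± 3257 CPM in chow livers for Itih4.

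Lbp, which hands lipopolysaccharide to CD14, averaged 141 ± 21.7 CPM in HFD livers and 257 ± 173 CPM in chow livers, with a log2 fold change of -0.86 ± 0.52. Cd14, the co-receptor on myeloid cells, was at 2.26 to 3.49 CPM in HFD livers and 1.36 to 5.10 CPM in chow livers. The central complement component C3 averaged 8597 ± 677 CPM in HFD livers and 11730.0 ± 5481 CPM in chow livers. Cfb, of the alternative complement pathway, was at 1.49, 1.30 and 1.21 CPM in HFD livers, against 0.821, 0.994 and 1.11 CPM in chow livers, a log2 fold change of 0.45 ± 0.35 (adjusted p 0.602). Il1rn was at 1.65, 1.87 and 8.48 CPM in HFD livers, against 1.21, 2.56 and 1.97 CPM in chow livers. HFD 3 alone carried its positive log2 fold change of 1.06 ± 0.66, which was -0.12 without that liver.

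Leaving out either extreme chow liver moved these results in opposite ways. Without chow 3, the median log2 fold change of the 30 genes was 0.07, 12 genes changed sign, and none passed the test. Without chow 1, the median was -0.84 and 4 genes were called lower in HFD livers, where 1.66% of all genes were. Those 4 were Apcs (-1.95, adjusted p 0.0127), Lbp (-1.27, 0.0266), Orm1 (-1.02, 0.0470) and Serpina3m (-1.48, 0.00675), by edgeR with 3 HFD and 2 chow livers. Socs3, a feedback inhibitor and target of STAT3, ran in the same order within chow, at 42.5, 36.4 and 31.5 CPM in HFD livers, against 27.3, 37.1 and 108 CPM in chow livers. The summed levels of 3 of 11 cell type marker lists did too, those of neutrophils, Kupffer cells and endothelium. The 10 neutrophil markers summed to 5.82, 7.10 and 7.06 CPM in HFD livers, against 3.59, 7.80 and 16.5 CPM in chow livers. Of those markers Ly6g was at 0 in every HFD liver and at most at 0.123 CPM in chow livers. Of the 5 tested, 0 passed the test and 1 had an unadjusted p under 0.05, where 15% of all genes had. DESeq2 called S100a8 lower, where it called 5.94% of all genes in either direction. Kupffer cell markers summed to 181, 152 and 279 CPM in HFD livers, against 83.7, 178 and 205 CPM in chow livers. Endothelial markers summed to 82.3, 81.7 and 109 CPM in HFD livers, against 84.2, 101 and 135 CPM in chow livers. Chow 3 was also the highest chow liver for erythroid markers, at 181, 291 and 183 CPM in HFD livers, against 299, 297 and 539 CPM in chow livers. Of the 5 erythroid markers, 4 had an unadjusted p under 0.05, where 15% of all genes had, and edgeR and limma-voom called 0. DESeq2 called 4 of them lower in HFD livers, where it called 5.94% of all genes in either direction. Chow 3 was the lowest chow liver for hepatocyte markers, at 71196, 73641 and 67055 CPM in HFD livers, against 74688, 86902 and 62087 CPM in chow livers. Albumin was the largest part of the hepatocyte sum, at 49614, 55072 and 30839 CPM in chow livers 1 to 3. The markers of that list did not all follow the sum. Among chow livers, albumin, Ttr and G6pc were lowest in chow 3, and Cps1, Apoa1 and Apob lay in between. Tat and Cyp2e1 were highest there, at 2469 and 10320 CPM. The part of other cells in the spread of chow livers was not tested.

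The second comparison asks what SSO did to the same transcripts 48 hours after PHx. None of the 29 genes tested passed the edgeR test, where 0.450% of 15788 genes did, and the smallest adjusted p was 0.0866 for Steap4. At an unadjusted p under 0.05 there were 12, 5 with a positive and 7 with a negative log2 fold change, SSO over vehicle, which is 41.4% of the members against 20.5% of all genes tested. DESeq2 called 9 of the 29. It called Orm1, Orm2, Orm3 and Saa3 higher in SSO livers, where it called 2.85% of all genes higher, and Il1rn, Cd14, Steap4, Fga and Fgg lower, where it called 4.66% of all genes lower. limma-voom called 0. edgeR with no filter on low counts called Steap4 alone among the members, where 0.377% of genes were called lower. By CPM the groups did not overlap for the same 4 genes above vehicle, where 6.14% of all genes did so. The same held for Fga, Fgb, Fgg, Steap4 and Il1rn below it, where 5.62% did. By TPM the groups stayed apart for Orm2, Orm3 and Il1rn, and overlapped for Orm1, Saa3, Fga, Fgb, Fgg and Steap4. The exon length of a gene is the same in every library, so CPM and TPM differ here in how libraries were scaled. CPM used TMM scaling factors, which were 1.20, 0.837, 1.24 and 0.979 in vehicle libraries 1 to 4 and 0.921 to 0.983 in SSO libraries. TPM did not use them. The median log2 fold change was -0.17, against -0.04 for all genes, with a range of -2.92 (Il1rn) to 2.71 (Saa2).

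**Figure D4:**
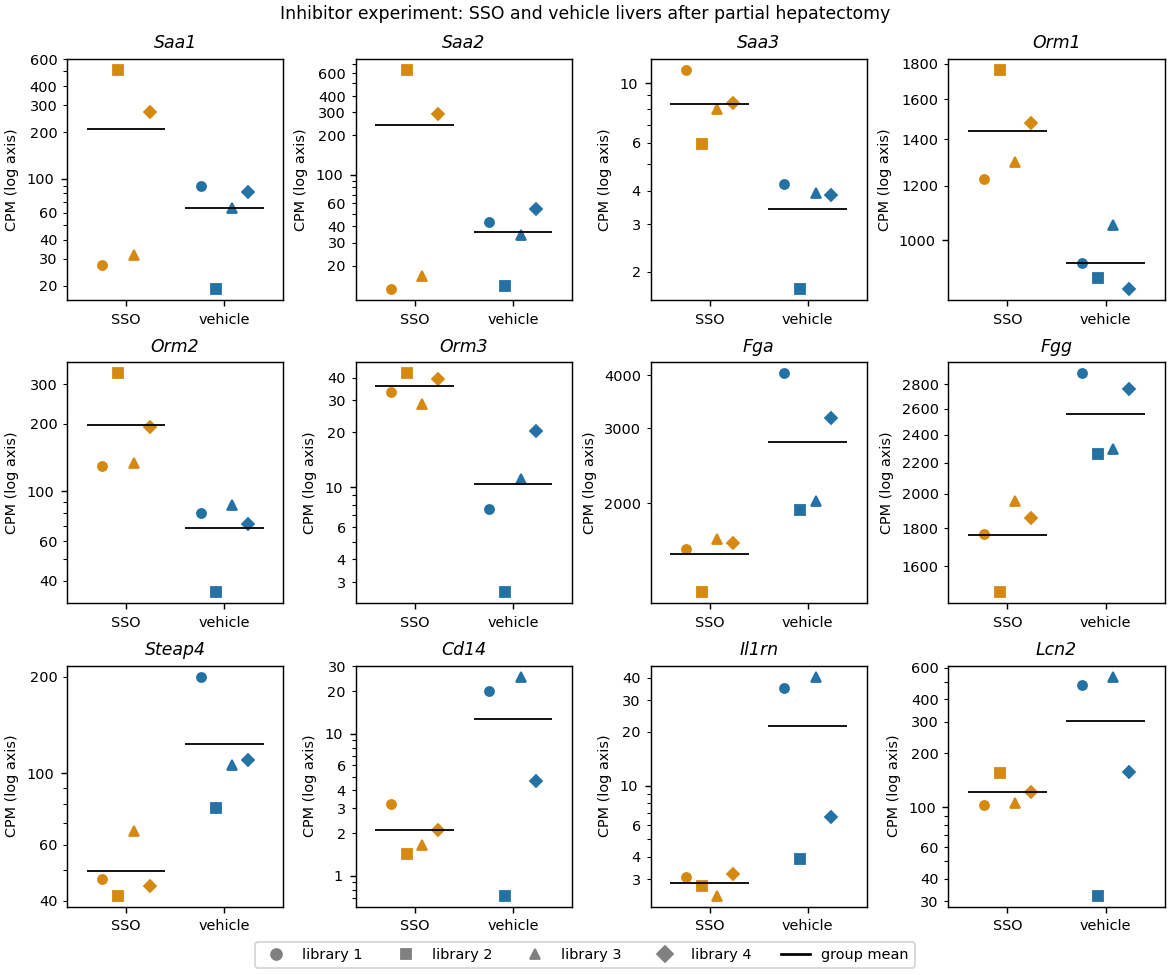
Points give the CPM of 12 acute phase genes in each SSO and vehicle library on a log axis, with marker shapes for libraries 1 to 4 and a bar at the group mean (n = 4 each). Saa3, Orm1, Orm2 and Orm3 lie higher in every SSO library than in any vehicle library, Fga, Fgg, Steap4 and Il1rn lie lower, and Saa1 and Saa2 split SSO 2 and SSO 4 (271 to 633 CPM) from SSO 1 and SSO 3 (13.2 to 31.5 CPM).

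Orosomucoids were the family with the clearest separation by CPM. Orm1 was at 1225, 1762, 1297 and 1478 CPM in SSO livers 1 to 4, against 927, 882, 1051 and 851 CPM in vehicle livers 1 to 4. Orm2 was at 129, 336, 134 and 194 CPM in SSO livers, against 80.4, 35.6, 87.4 and 71.6 CPM in vehicle livers. Orm3 was at 33.3, 42.3, 28.5 and 39.1 CPM in SSO livers, against 7.53, 2.63, 11.1 and 20.3 CPM in vehicle livers. By CPM every SSO library lay above every vehicle library for all 3 genes, and vehicle 2 was the lowest for Orm2 and Orm3. By TPM this held for Orm2 and Orm3 but not for Orm1. Orm1 was at 3211, 4861, 3459 and 3738 TPM in SSO livers, against 3729, 1918, 3881 and 2516 TPM in vehicle livers. The log2 fold changes were 0.63 ± 0.22, 1.53 ± 0.36 and 1.78 ± 0.49 for Orm1, Orm2 and Orm3, with edgeR adjusted p of 0.152, 0.106 and 0.119 and DESeq2 adjusted p of 0.00720, 0.00167 and 0.00526. The sign was positive for each of them under every scaling, filter and left-out library that was run.

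Among the serum amyloid A genes, Saa3 was at 11.2, 5.93, 8.02 and 8.48 CPM in SSO livers, against 4.23, 1.72, 3.92 and 3.84 CPM in vehicle livers. It is the least abundant of the 4 per length in SSO livers, its groups did not overlap by CPM, and its log2 fold change was 1.29 ± 0.33 (edgeR adjusted p 0.110, DESeq2 0.00556). Saa1 was at 27.3, 509.5, 31.5 and 271 CPM in SSO livers, against 89.8, 19.0, 64.2 and 82.0 CPM in vehicle livers. Saa2 was at 13.2, 633, 16.6 and 289 CPM in SSO livers, against 43.0, 14.02, 34.6 and 54.1 CPM in vehicle livers. Both were high in SSO 2 and SSO 4, while SSO 1 and SSO 3 lay below most or all vehicle libraries, so the positive log2 fold changes of 1.72 ± 0.92 for Saa1 and 2.71 ± 1.13 for Saa2 (adjusted p 0.322 and 0.223) rest on 2 libraries. Without SSO 2 they were 0.79 and 1.54. The ratio of Saa2 to Saa1 was 0.484, 1.24, 0.526 and 1.07 in SSO livers and 0.479, 0.737, 0.539 and 0.659 in vehicle livers. Saa2 passed Saa1 in SSO 2 and SSO 4, where both were high, and nearly matched it in chow 2 and chow 3 of the diet experiment. HFD livers did not share this, with Saa1 at 1338 to 1859 CPM and ratios of 0.589 to 0.665. The same 2 SSO livers were the high SSO livers for the metallothionein Mt1, at 189, 484, 176 and 391 CPM in SSO livers, against 287, 360.0, 499 and 197 CPM in vehicle livers. Mt2 did not share this, at 6.76, 13.4, 5.92 and 3.68 CPM in SSO livers, with SSO 4 the lowest of them. Saa4 averaged 171 ± 16.2 CPM in SSO livers and 176 ± 78.2 CPM in vehicle livers (SD, n = 4 each), and its sign varied with the libraries included.

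Fibrinogen chains lay below vehicle by CPM. Fga was at 1557, 1233, 1651 and 1615 CPM in SSO livers, against 4043, 1925, 2019 and 3179 CPM in vehicle livers. Fgb was at 2833, 2357, 2914 and 2831 CPM in SSO livers, against 4714, 2985, 3659 and 3639 CPM in vehicle livers. Fgg was at 1767, 1477, 1957 and 1858 CPM in SSO livers, against 2897, 2259, 2297 and 2760.2 CPM in vehicle livers. By CPM no SSO library reached a vehicle library for any chain, with vehicle 1 the highest for all 3. By TPM vehicle 2 did not lie above the SSO libraries. It was at 1079 TPM for Fga, 1321 for Fgb and 1820 for Fgg, against 876 to 1133, 1323 to 1580 and 1509 to 1931 TPM in SSO livers. The log2 fold changes were -0.88 ± 0.29 for Fga, -0.46 ± 0.24 for Fgb and -0.53 ± 0.23 for Fgg, with adjusted p of 0.149, 0.313 and 0.220 by edgeR and 0.0222, 0.109 and 0.0290 by DESeq2. The pentraxins averaged 225 ± 23.0 CPM in SSO livers and 276 ± 76.6 CPM in vehicle livers for Crp and 284 ± 35.4 CPM in SSO livers and 287 ± 94.2 CPM in vehicle livers for Apcs, and both overlapped between the groups.

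Of the haem and metal binders, Steap4 had the smallest p. It was at 46.9, 41.6, 66.0 and 44.5 CPM in SSO livers, against 200.4, 77.8, 106 and 110.0 CPM in vehicle livers, with no overlap by CPM and a log2 fold change of -1.31 ± 0.28. Lcn2 was at 103, 156, 106 and 122 CPM in SSO livers, against 483, 32.3, 537 and 157 CPM in vehicle livers. Vehicle 1 and vehicle 3 were the high ones for Lcn2 and vehicle 2 was below every SSO library, with a log2 fold change of -1.31 ± 0.69 (adjusted p 0.313). The summed level of the 10 neutrophil markers, cells that hold much Lcn2, was 15.3, 14.5, 9.45 and 13.9 CPM in SSO livers, against 35.5, 4.49, 59.3 and 5.52 CPM in vehicle livers, with Ly6g at most at 0.132 CPM. Vehicle 1 and vehicle 3 were high for these markers too, 0 of the 5 tested passed the test or had an unadjusted p under 0.05, DESeq2 called 0, and their part in the Lcn2 level was not tested. The abundant plasma scavengers Hp and Hpx were at 5484, 5080.3, 5448 and 5609 CPM and 5802, 3926, 5563 and 5116 CPM in SSO livers, against 5452, 3936, 5843 and 5497 CPM and 4457, 5231, 4154 and 4840.4 CPM in vehicle livers. Their log2 fold changes of 0.06 ± 0.25 and 0.13 ± 0.25 had a sign that turned with library-size scaling. Cp averaged 1008 ± 126 CPM in SSO livers and 1133 ± 213 CPM in vehicle livers, and Mt2 7.44 ± 4.18 CPM in SSO livers and 7.72 ± 3.27 CPM in vehicle livers.

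The Serpina3 genes had negative log2 fold changes, -0.43 ± 0.25 for Serpina3k, -1.15 ± 0.40 for Serpina3m and -0.76 ± 0.40 for Serpina3n, with adjusted p of 0.351, 0.162 and 0.305. Serpina3m was at 114, 143, 149 and 136 CPM in SSO livers, against 544, 102, 240.2 and 311 CPM in vehicle livers. SSO libraries were close to vehicle 2 and below the other 3 vehicle libraries. Itih3 averaged 1371 ± 94.8 CPM in SSO livers and 1327 ± 85.5 CPM in vehicle livers and Itih4 1348 ± 146 CPM in SSO livers and 1501 ± 474 CPM in vehicle livers. C3 was at 4637, 4300.0, 5156 and 4946 CPM in SSO livers, against 7444, 4487, 3687 and 7310.1 CPM in vehicle livers, a log2 fold change of -0.27 ± 0.30. Cfb was at 0.358 to 2.22 CPM in SSO livers and 0.726 to 2.64 CPM in vehicle livers. Lbp averaged 87.0 ± 6.11 CPM in SSO livers and 121 ± 32.0 CPM in vehicle livers, a log2 fold change of -0.48 ± 0.20 (adjusted p 0.222).

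Cd14 and Il1rn, genes that myeloid cells express strongly, had the lowest log2 fold changes. Cd14 was at 3.19, 1.42, 1.64 and 2.11 CPM in SSO livers, against 20.1, 0.726, 25.3 and 4.63 CPM in vehicle livers. Il1rn was at 3.08, 2.73, 2.42 and 3.18 CPM in SSO livers, against 35.0, 3.90, 40.7 and 6.65 CPM in vehicle livers. Vehicle 1 and vehicle 3 were several times higher than the other 6 libraries for both genes, and vehicle 2 was the lowest of all for Cd14. The log2 fold changes were -2.60 ± 0.88 for Cd14 (adjusted p 0.157) and -2.92 ± 0.71 for Il1rn (adjusted p 0.110). The summed level of 7 recruited monocyte markers was also high in vehicle 1 and vehicle 3, at 31.6, 33.2, 26.9 and 34.2 CPM in SSO livers, against 402, 45.2, 459 and 66.2 CPM in vehicle livers. All 7 had a negative log2 fold change, 5 at an unadjusted p under 0.05, where 20.5% of all genes had. Of the 7, 0 were called by edgeR and 4 were called lower by DESeq2, where it called 4.66% of all genes lower. Lyz2, at 0.0371, 11.3, 0.428 and 8.01 CPM in SSO livers, against 189, 23.0, 189 and 41.6 CPM in vehicle livers, did not overlap. The other markers of the list overlapped between the groups. No marker was at 0 in any library, but Lyz2 had only 1 count in SSO 1 and 12 in SSO 3, against 311 in SSO 2 and 224 in SSO 4. Of the 11 cell type lists, 7 had a higher sum in vehicle 1 and vehicle 3 than in vehicle 2 and vehicle 4. Kupffer cell markers summed to 230.1, 288, 164 and 209 CPM in SSO livers, against 414, 95.2, 312 and 84.2 CPM in vehicle livers. Stellate and fibroblast markers summed to 164, 258, 197 and 209 CPM in SSO livers, against 589.8, 150.1, 535 and 236 CPM in vehicle livers, and cholangiocyte markers to 37.7, 39.4, 33.1 and 43.2 CPM in SSO livers, against 134, 44.3, 163 and 41.2 CPM in vehicle livers. DESeq2 called Col1a1, Col3a1 and Spp1 of these lists lower in SSO livers, where it called 4.66% of all genes lower, and edgeR called 0. Of the 6 stellate and fibroblast markers, 4 had a negative log2 fold change and 2 a positive one, Dcn and Lrat, both at 0.13. Of the 5 cholangiocyte markers, 4 were negative and 1 positive. Neutrophil, endothelial and lymphocyte markers also summed higher in vehicle 1 and vehicle 3 than in vehicle 2 and vehicle 4. Erythroid, hepatocyte, mesothelial and adipocyte markers did not. In such bulk samples fewer cells of a type and less RNA per cell cannot be told apart, and the part of these cells in the Cd14, Il1rn and Lcn2 values was not tested. Without both vehicle 1 and vehicle 3, the log2 fold change was -0.37 for Cd14, -0.89 for Il1rn and 0.36 for Lcn2. The same omission left Orm2 at 1.88, Saa3 at 1.58, Steap4 at -0.92 and Fga at -0.76, none of them called.

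**Figure D5:**
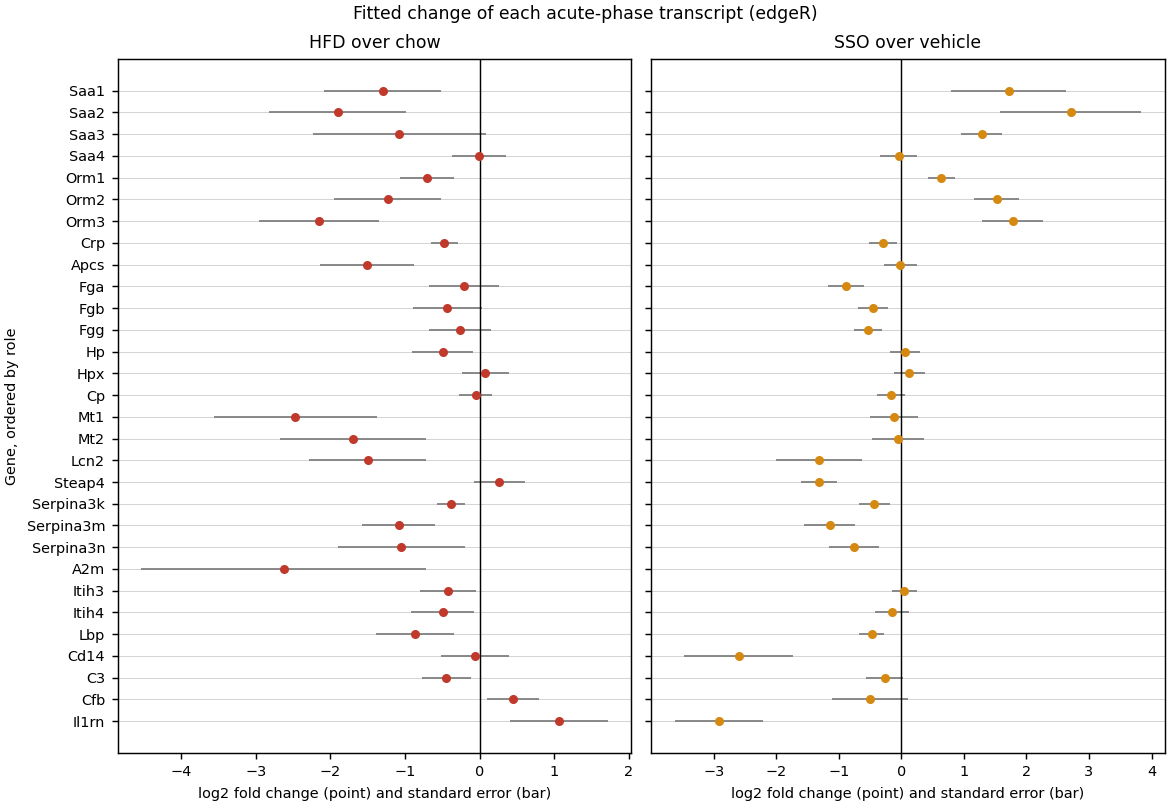
Points give the edgeR log2 fold change of each acute phase gene and bars its standard error, HFD over chow on the left and SSO over vehicle on the right, with a line at 0. The Saa1, Saa2, Saa3 and orosomucoid points lie left of 0 for HFD (-2.16 to -0.71) and right of 0 for SSO (0.63 to 2.71), and no point in either panel passed the test.

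The calls of the inhibitor experiment depended on vehicle 2, the library with 22.5% mitochondrial counts. Without it, edgeR called 10 of the 29 genes. Orm3, Orm2 and Saa3 were higher in SSO livers (1.47, 1.31 and 1.07 on the log2 scale), where 6.96% of all genes were called higher. Il1rn (-3.26), Cd14 (-2.99), Lcn2 (-1.69), Steap4 (-1.48), Serpina3m (-1.43), Serpina3n (-1.05) and Fga (-1.02) were lower, where 9.23% of all genes were called lower. Adjusted p ran between 0.00590 for Steap4 and 0.0294 for Fga. Without vehicle 4, Orm3 was called higher (2.34, where 0.804% of all genes were) and Il1rn lower (-3.20, where 1.43% were). Leaving out any other single library of the inhibitor experiment called 0 members.

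Upstream of these genes, a list of 39 cytokines, receptors and transcription factors of acute-phase signalling was examined with the same fits. In the diet experiment 0 of the 34 tested passed the edgeR test, and DESeq2 and limma-voom called 0. At an unadjusted p under 0.05 there was 1, where 15% of all genes were. That 1 was Cebpb, a C/EBP factor of the acute phase, which averaged 149 ± 42.4 CPM in HFD livers and 228 ± 20.6 CPM in chow livers, a log2 fold change of -0.62 ± 0.21. In the inhibitor experiment Il6, the gene of interleukin-6, fell, the 1 call among 36 tested, where 0.450% of all genes were called. At an unadjusted p under 0.05 there were 12 of the 36, against 20.5% of all genes. Il6 had 1, 1, 1 and 2 counts in SSO libraries 1 to 4, against 32, 28, 21 and 20 counts in vehicle libraries 1 to 4. The edgeR log2 fold change was -4.18 ± 0.68 (adjusted p 0.0369), and the ratio of summed scaled counts, SSO over vehicle, was 0.0530 with a 95% counting interval of 0.0169 to 0.128. The call was lost, with the log2 fold change between -4.46 and -3.76, in limma-voom and without SSO 1, SSO 2, SSO 3, SSO 4, vehicle 1, vehicle 3 or both these vehicle libraries (adjusted p up to 0.170), and held under 10 of 18 alternatives. Of the 36 genes, 11 had a positive and 25 a negative log2 fold change, with a median of -0.26, and limma-voom called 0. DESeq2 called 6, with Cebpb higher, where it called 2.85% of all genes higher, and Il6, Myd88, Osmr, Rela and Tlr2 lower in SSO livers, where it called 4.66% lower. Osmr, a receptor chain for cytokines of the interleukin-6 family, averaged 4.11 ± 1.07 CPM in SSO livers and 11.99 ± 7.28 CPM in vehicle livers, and Myd88, the adaptor of interleukin-1 and Toll-like receptors, averaged 15.2 ± 2.07 CPM in SSO livers and 26.0 ± 7.07 CPM in vehicle livers. In the diet experiment, as a gene chosen after its values were seen, Il6 had 13, 12 and 5 counts in HFD livers, against 2, 2 and 1 counts in chow livers. Il6 was under the low-count filter there, so the main edgeR fit did not test it.

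Among 34 further acute-phase genes, edgeR called 2 of the 32 tested in the diet experiment, where 2.32% of all genes were called, with 11 at an unadjusted p under 0.05, where 15% of all genes were. Mbl2, a mannose-binding lectin of the complement system, rose. It was at 289, 248 and 264 CPM in HFD livers, against 144, 142 and 93.6 CPM in chow livers, a log2 fold change of 1.07 ± 0.19 (adjusted p 0.0231). Hamp2, a relative of the iron hormone hepcidin, fell. It was at 0.248, 0.242 and 0.148 CPM in HFD livers, against 1.28, 1.07 and 1.29 CPM in chow livers, a log2 fold change of -2.49 ± 0.47 (adjusted p 0.0298). These levels rest on few reads, with 9, 8 and 5 counts in HFD livers, against 50, 41 and 42 counts in chow livers. limma-voom called the same 2 genes and DESeq2 called 9, those 2 among them, where it called 5.94% of all genes. Mbl2 missed the threshold without HFD 1, HFD 2, HFD 3 or chow 2 (adjusted p up to 0.134), and Hamp2 without any single library but chow 1 (adjusted p up to 0.131). In the inhibitor experiment edgeR and limma-voom called 0 of the 31 tested, DESeq2 called 3 (C1ra, C1s1 and Vnn1), and 5 had an unadjusted p under 0.05, where 20.5% of all genes had. Of 20 negative acute-phase proteins, whose plasma levels drop in inflammation, edgeR called 0 in either experiment. At an unadjusted p under 0.05 there were 3 in the diet experiment, where 15% of all genes were, and 1 in the inhibitor experiment, where 20.5% were. DESeq2 called 1, Pon1 in the diet experiment, and limma-voom called 0. The summed level of 8 hepatocyte markers in the inhibitor experiment was 71704 to 92294 CPM in SSO livers and 65885 to 107904 CPM in vehicle livers. Of these markers, edgeR called G6pc and Tat, enzymes of glucose release and tyrosine breakdown, lower in HFD livers, where 2.32% of all genes were called in either direction. limma-voom called Cps1, G6pc and Tat lower in HFD livers, where it called 2.32% of all genes. DESeq2 called Cps1, Cyp2e1, G6pc and Tat lower, where it called 5.94% of all genes. In SSO livers edgeR called 0, 0 had an unadjusted p under 0.05 and DESeq2 called 0. G6pc averaged 138 ± 11.1 CPM in HFD livers and 259 ± 33.9 CPM in chow livers and Tat 651 ± 56.0 CPM in HFD livers and 1791 ± 671 CPM in chow livers (SD, n = 3 each).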

How the data were processed

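Liver RNA selected by its poly(A) tail was sequenced, and the authors deposited whole-number read counts per gene, 1 column per library, for each experiment. The submitters' processing notes name HISAT2 2.2.1 and featureCounts 2.0.2, with Trim Galore 0.6.1 and DESeq2, on GRCm38. They state neither a strand setting nor how reads that match several genes were counted. Columns were put in groups by their names.

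Each table was fitted whole with edgeR 4.0.16 (TMM scaling, filterByExpr, robust quasi-likelihood test) in R 4.3.3. A gene was called at a Benjamini-Hochberg adjusted p under 0.05 over all genes tested. Fold changes are HFD over chow and SSO over vehicle, with SE as the size of the log2 fold change over the square root of the F statistic. CPM used TMM-scaled library sizes, 0.1 CPM was added before taking log2 for spreads, and TPM used GENCODE M21 exon lengths. DESeq2 1.42.0, limma-voom (limma 3.58.1), other scalings, no low-count filter and left-out libraries were the alternatives. The fits were first checked on simulated counts. Counting intervals and floors cover counting error only.

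The members and gene lists were chosen with earlier results of these data known, so the lists got no test of their own. By rule, every library was given for called members, the 3 members with the largest mean CPM and the 3 with the largest and the smallest log2 fold change in each experiment. The other members and genes given by library were chosen after their values were seen. Motifs were searched in RefSeq start regions of GRCm38.p6. A table of sorted macrophages and single-cell records were not analysed here.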

Additional observations from a re-analysis of the deposited data

Results flagged for a closer look

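Among 60 sets of 4 libraries (30 genes, SSO and vehicle), 2 held a library whose gap to its nearest neighbour passed Dixon's critical value for 4 samples, and chance flags about 1 set in 20. Fgb was at 2357 CPM in SSO 2, below the 2831 to 2914 CPM of the other SSO libraries, with a gap of 0.852 of the range. Saa3 was at 1.72 CPM in vehicle 2, below the 3.84 to 4.23 CPM of the other vehicle libraries, with a gap of 0.845 of the range. HFD and chow, with 3 libraries each, were not examined in this way.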

How the results depend on the processing

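In the diet experiment no alternative other than leaving out chow 1 called a member, and leaving out 1 library gave 0 to 4 called members, 86 (without HFD 1) to 681 (without chow 1) called genes against 361, and a median log2 fold change of -0.84 to 0.067. DESeq2 called 926 genes and no low-count filter 672. Library-size scaling moved the median of all genes by 0.15 and gave Cp 0.11, Saa4 0.17 and Cd14 0.13. limma-voom gave Fga 0.030, A2m 0.55, Saa3 0.28, Saa4 0.12 and Cd14 0.16. Leaving out 1 library turned the sign of 16 members, with ranges of -0.12 to 1.44 for Il1rn, -0.23 to 0.13 for Cp, -0.58 to 0.41 for Fgg, -0.57 to 0.53 for Fga, -0.78 to 0.33 for Fgb, -0.016 to 0.77 for Steap4, -3.51 to 2.27 for A2m, -1.61 to 1.21 for Saa3, -0.26 to 0.58 for Saa4, -1.75 to 0.080 for Saa1, -0.18 to 0.46 for Hpx, -0.84 to 0.066 for Hp, -0.85 to 0.068 for Itih4, -0.74 to 0.10 for Itih3, -1.52 to 0.45 for Serpina3n and -0.40 to 0.57 for Cd14.

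In the inhibitor experiment, leaving out 1 library gave 0 to 10 called members and 0 (without SSO 1) to 2646 (without vehicle 2) called genes, against 71. DESeq2 called 9 members and 1186 genes, no low-count filter 1 member and 205 genes, library-size scaling 37 genes, and leaving out vehicle 2 and the mitochondrially encoded genes 10 members and 2614 genes. That last setting gave Saa4 0.068, Mt2 0.070 and Hp -0.042. Library-size scaling moved the median of all genes by -0.16 and gave Hpx -0.018, Hp -0.13 and Itih3 -0.12, and limma-voom gave Apcs 0.068 and Saa4 0.042. Without both vehicle 1 and vehicle 3, Apcs was 0.41, Lcn2 0.36 and Mt1 0.16. Leaving out 1 library gave -0.21 to 0.13 for Apcs, -0.22 to 0.24 for Saa4, -0.50 to 0.20 for Mt2, -0.41 to 0.15 for Mt1 and -0.050 to 0.13 for Hp. Where a count or sign changed, the cause was not tested. With an arm of 2 libraries, calls rest on a spread estimated from few libraries, and no paired analysis was possible because the labels give no replicate numbers shared by animal, day or batch.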
